A study of Mus musculus with 5 samples.

Results

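The cytosolic ribosomal protein genes are described here in sorted mouse microglia with and without deletion of A20, the protein encoded by Tnfaip3. Members were the protein-coding genes whose symbol begins with Rpl, Rps or Rplp followed by a digit, leaving out pseudogene symbols and the Rps6k kinases. This rule took 85 of the 41388 genes in the count table, 52 named for the large subunit and 33 for the small subunit. Of these, 76 encode standard (core) ribosomal proteins, 46 large and 30 small, and the other 9 are paralogs, a retrogene and 1 binding protein (Rpl22l1, Rps27l, Rps27rt, Rpl10l, Rpl36al, Rpl39l, Rpl3l, Rpl7l1 and Rps19bp1). The rule reads names and not expression. It misses standard proteins that have other symbols, such as Rpsa, Fau and Rack1, and these are given separately.

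The series holds 5 RNA sequencing libraries of brain microglia, the resident macrophages of the brain, with 2 control and 3 A20 deletion libraries. Control mice had the genotype eYFP-A20fl/wt Cx3cr1-CreERT2/+, with 1 floxed and 1 wild-type A20 allele, and the labels call them partially deficient. The deletion mice are labelled eYFP-A20Dmg and described as fully deficient, and their alleles are not spelled out further. All mice were C57Bl/6, aged 4 weeks and kept specific-pathogen-free, and all received 2 mg tamoxifen on postnatal days 14 and 16, the controls included. Cre is driven from the Cx3cr1 locus, which is active in microglia and in other macrophages and monocytes, and cells were taken from papain-digested brain by sorting for the eYFP reporter. The control is therefore a heterozygous, tamoxifen-treated group and not an untreated wild type. Whether each library is a separate animal is not stated in the labels, and p-values here measure only the spread between libraries, part of which may be technical.

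Each ribosome contains 1 copy of most ribosomal proteins, so cells make the proteins of both subunits in step. Their mRNAs are short, abundant and stable, and most begin with a 5′ terminal oligopyrimidine (TOP) tract, a C followed by a run of C and T. The kinase complex mTORC1 and the RNA-binding protein Larp1 act through this tract to set the translation and the stability of these mRNAs together. A20 edits ubiquitin chains and thereby dampens NF-kB signalling, and several ribosomal proteins have second roles in immune signalling.

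The start of the transcript is shown for members with and without a TOP tract exactly at the annotated start, because this is the feature that the family is known to share. The windows are from RefSeq on GRCm38.p6, with 15 bases before and 15 bases from the annotated start, 5′ to 3′ on the strand of the gene. Capitals mark the unbroken run of C and T at the start where its first base is C.
Rpl35: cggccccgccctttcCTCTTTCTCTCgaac
Rpl38: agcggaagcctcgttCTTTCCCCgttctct
Rplp2: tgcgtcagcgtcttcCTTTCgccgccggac
Rps15a: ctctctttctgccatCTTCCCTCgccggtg
Rps6: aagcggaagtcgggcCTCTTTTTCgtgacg
Rps27: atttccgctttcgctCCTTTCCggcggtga
Rps27rt: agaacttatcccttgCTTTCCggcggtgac
Rpl28: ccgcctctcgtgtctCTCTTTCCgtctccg
Rps25: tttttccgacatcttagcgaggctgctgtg
Rpl7l1: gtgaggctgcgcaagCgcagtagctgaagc
Rps19bp1: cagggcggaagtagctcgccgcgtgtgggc
The windows lie at chr2:39005117-39005146 (Rpl35, minus strand), chr11:114668565-114668594 (Rpl38, plus), chr7:141447636-141447665 (Rplp2, plus), chr7:118116133-118116162 (Rps15a, minus), chr4:86857353-86857382 (Rps6, minus) and chr3:90213634-90213663 (Rps27, minus). The others lie at chr9:114982725-114982754 (Rps27rt, minus), chr7:4792950-4792979 (Rpl28, plus), chr9:44407699-44407728 (Rps25, plus), chr17:46782642-46782671 (Rpl7l1, minus) and chr15:80264292-80264321 (Rps19bp1, minus). The RefSeq start table matched 65 of the 85 members, with 77 promoters, since some genes have several starts. A run of at least 5 pyrimidines that opens with C stood exactly at the start in 14 of these 77 (18.2%), against 2.51% of all 32851 promoters in the table. Within 10 bases of the start such a run was found in 54.5% of member promoters and in 30.7% of all promoters. Members without a run exactly at the annotated start can thus have one nearby, as in Rpl27a, Rpl7a and Rpl13a (20, 17 and 14 bases). Rps27rt, a retrogene of Rps27, has a pyrimidine run at its own annotated start, of 6 bases against 7 in Rps27.

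Promoter windows of 250 bases before and 50 after the start were searched on both strands for short motifs. CCGGAAG, a form of the site of GABP, was present in 33.8% of member promoters against 8.86% of all. AAGATGG, a form of the YY1 site, was present in 15.6% against 6.34%, and GGGCGG, the Sp1 site, in 59.7% against 35.7%. The E-box CACGTG, the site of Myc, was present in 10.4% against 7.15%. The interferon response element, searched as GAAA, any 2 bases and GAAA, was found in 7 of the 77 (9.09%) against 3.44% of all, in Rpl27a, Rpl38, Rpl4, Rpl5, Rps19, Rps23 and Rps7. The NF-kB site, searched as GGG, any 2 bases and TTTCC, was found in 0 of 77 and in 1.63% of all. Starts of 1 gene were counted separately, and their windows can overlap and share a match. This was so in Rpl35a for the YY1 site and in Rpl19 and Rpl34 for the E-box. A match is a description of the letters in the window and not a measured binding site.

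Library totals ran from 9726334 to 15275199 counts. Counts over the whole Tnfaip3 gene were 458 and 96.7 in the controls, as counts per 1000000 (CPM), and 286, 273 and 351 in the deletion libraries, which overlap. The labels do not say which part of the gene is removed, so this row does not check the deletion. Microglial markers were abundant in every library, with 10 markers summing to 53600 and 59800 CPM in the controls and 38420 to 42250 CPM in the deletion libraries, where 1 of the 10 was called lower. Defining markers of T cells (Cd3d, Cd3e, Cd3g and Trac together) had 0 counts in both controls and 22, 18 and 12 counts in the deletion libraries. Of 15 T cell markers 3 could be tested and 0 were called, and the list summed to 84.9 and 90.4 CPM in controls and 63.1 to 69.8 CPM in deletion libraries. The 10 monocyte markers, with 7 tested and 1 called higher, summed to 19.6 and 21.7 CPM in controls and 43.3 to 72.3 CPM in deletion libraries. Of 10 endothelial markers 1 was called higher, and the list summed to 74.1 and 81.5 CPM against 118 to 301 CPM. The 10 oligodendrocyte markers (7 tested, 0 called) summed to 198 and 229 CPM against 251 to 373 CPM, and the B cell list (9 found, 2 tested, 0 called, Fcer2a at 0 in every library) to 281 and 344 CPM against 374 to 419 CPM. The 10 astrocyte markers, 1 of them called higher, summed to 179.7 and 267 CPM in the controls, 196 CPM in A20 deletion replicate 1, and 427 and 438 CPM in replicates 2 and 3. The share of counts from the mitochondrial genome was 4.63% and 3.56% in A20 deletion replicates 2 and 3 and 0.847% to 1.19% in the other 3 libraries, so those replicates stand apart by this measure.

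Ribosomal protein mRNAs as a group took a larger share of the counts in every deletion library than in either control. Members made up 0.972% of all counts in control replicate 1 and 1.06% in control replicate 2. They made up 1.56%, 2.27% and 2.60% in A20 deletion replicates 1, 2 and 3. The mean share was 1.01% ± 0.0585 (SD, n = 2) in controls and 2.14% ± 0.533 (SD, n = 3) in deletion libraries, a 2.11-fold difference, and the groups did not overlap. The deletion libraries differed from one another far more than the controls did, and replicate 1 lay nearest to the controls. In bulk RNA, a change in the mix of cells and a change in RNA per cell cannot be told apart.

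**Figure D1:**
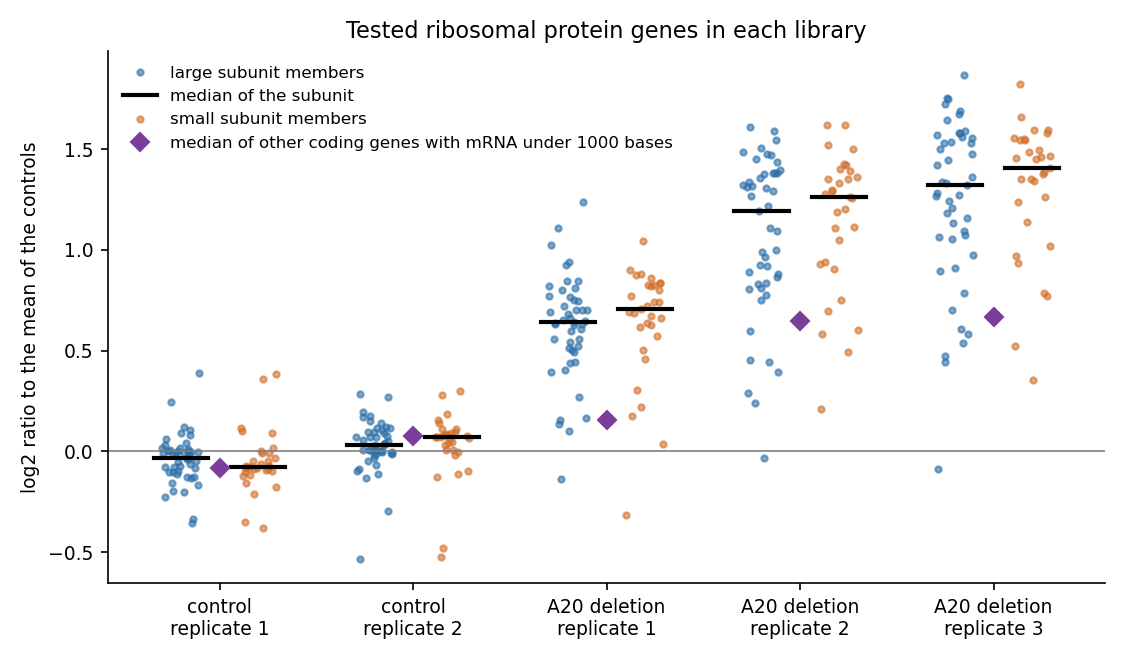
Each point is 1 tested ribosomal protein gene in 1 library (large subunit blue, small subunit orange), as its log2 ratio to the mean of the controls after TMM scaling with 0.5 CPM added; bars are subunit medians and diamonds the median of other coding genes with mRNA under 1000 bases. The member medians are 0.67, 1.24 and 1.36 in A20 deletion replicates 1, 2 and 3, above the short-gene medians of 0.16, 0.65 and 0.67.

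Of the 85 members, 78 passed the filter on low counts and were tested with edgeR's quasi-likelihood test across 12240 genes, with Benjamini-Hochberg adjustment. At an adjusted p under 0.05, 14 members were higher in the deletion libraries and 0 were lower. This is 17.9% of the tested members, beside 2.08% of all tested genes called higher (2.59% called in either direction). They included Rpl22l1, Rps25, Rpl32, Rpl36al, Rps26, Rpl19, Rps7, Rplp1, Rps15a, Rps24, Rps20, Rps19 and Rps9. In 72 of the 85 members every deletion library lay above both controls, which was so for 19.1% of all tested genes. The fold change was above 0 in 77 of the 78, beside 53.6% of all tested genes, and 64 had an unadjusted p under 0.05 with the deletion higher, beside 12.8%.

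The median log2 fold change over the 78 tested members was 1.15 (2.22-fold), with quartiles of 0.88 and 1.30, while the median over all tested genes was 0.046. Between adjusted p-values of 0.05 and 0.1 there were many more members, and 55 of 78 were under 0.1, beside 644 of all tested genes (5.26%). The 44 core members with a mean of at least 10 CPM that missed the threshold had log2 fold changes from 0.61 to 1.46 and edgeR adjusted p-values from 0.0520 to 0.266. The filter passed few members through the deletion group alone: 74 of the 78 reached the minimum count in both controls, and 73 of those 74 had a log2 fold change above 0. The others were Rps27 and Rpl5, under the minimum in both controls, and Rps6 and Rps29, under it in 1 control.

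The 14 edgeR adjusted p-values lay between 0.0261 and 0.0490, and the number called moved with the tool and with single libraries, while the member median stayed above 0 in each fit. DESeq2 called 57 members (6.08% of all genes called higher), a filter at 5 CPM 23 (3.08%), no filter 59 (5.06%), limma-voom 8 (1.36%) and a scaling on library size alone 9 (1.94%). Without A20 deletion replicate 1, 66 members were called (15.7%), and 0 were called by edgeR without control replicate 1 (0.123%), control replicate 2 (0%), A20 deletion replicate 2 (1.35%) or replicate 3 (0.727%), with 57 to 63 members at an unadjusted p under 0.05 in these fits.

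**Figure D2:**
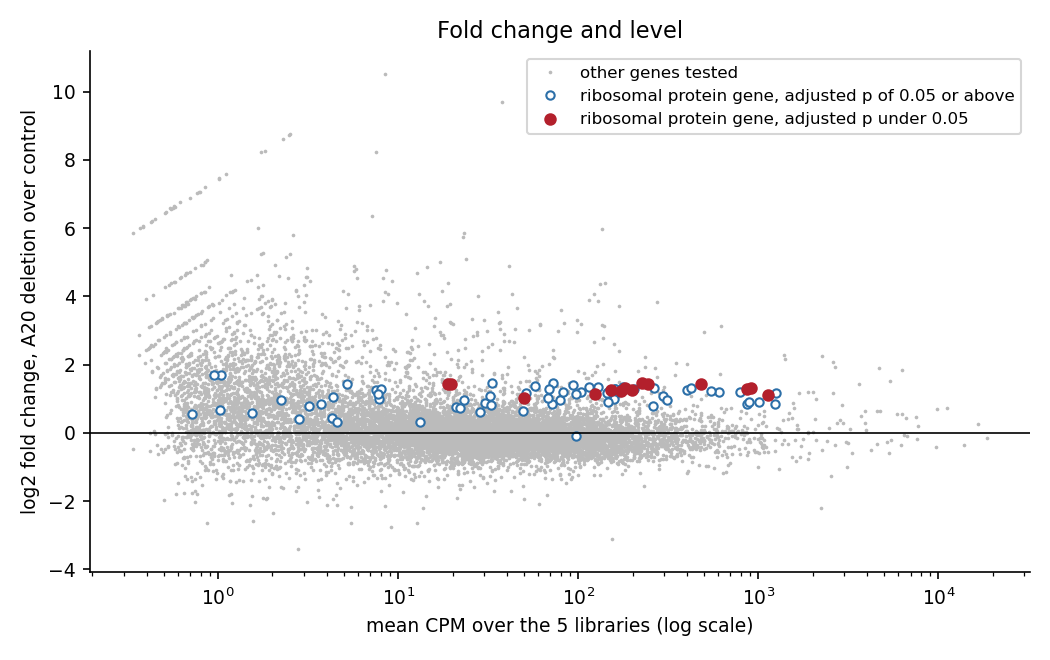
Log2 fold change (A20 deletion over control, vertical) against mean CPM over the 5 libraries (log axis, horizontal) for all 12240 tested genes in grey; ribosomal protein genes are circles, filled red where the adjusted p is under 0.05. All but 1 of the 78 members lie above 0, and the 14 filled points all have a mean of at least 10 CPM.

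Both subunits took larger shares of the counts in the deletion libraries. The large subunit share was 0.527% and 0.564% in the controls and 0.819%, 1.19% and 1.38% in the deletion libraries. The small subunit share was 0.446% and 0.491% in the controls and 0.737%, 1.08% and 1.22% in the deletion libraries. The order of the 5 libraries was the same for both subunits.

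The ratio of summed large to small subunit CPM was 1.18 and 1.15 in the controls and 1.11, 1.10 and 1.13 in the deletion libraries. The means were 1.17 ± 0.0226 (SD, n = 2) and 1.12 ± 0.0143 (SD, n = 3), so the deletion libraries lay slightly below the controls without overlap. With each gene divided by its exonic length (TPM) the ratios were 1.35 and 1.33 in the controls and 1.33, 1.29 and 1.32 in the deletion libraries, and the gap between the groups shrank from 0.051 to 0.027. Only 5 of 47 tested large subunit members were called, against 9 of 31 small subunit members, with median log2 fold changes of 1.09 and 1.20. The difference between the subunits was not tested.

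**Figure D3:**
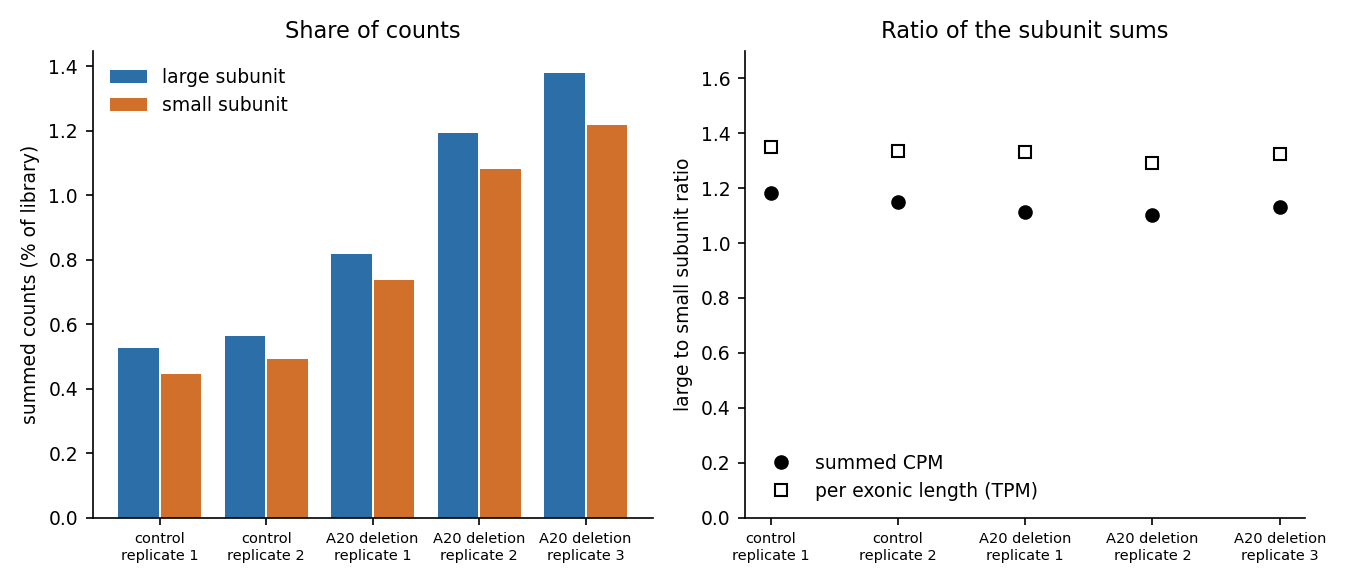
Left, summed counts of the large and the small subunit members as a percent of each library; right, the ratio of the subunit sums per library in CPM (filled) and per exonic length (open). The sums differ more than 2-fold between controls and A20 deletion replicates 2 and 3, while the CPM ratio stays between 1.10 and 1.18.

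The P stalk of the large subunit recruits the elongation factors that drive each step of translation. Rplp1, a stalk protein, had 439 and 530 CPM in the controls and 834, 1279 and 1442 CPM in the deletion libraries. It rose by 1.32 (log2, SE 0.25, edgeR adjusted p = 0.0446). Both controls lay below all 3 deletion libraries. Its partner Rplp2 had 209 and 236 CPM in controls and 344, 542 and 667 CPM in deletion libraries, a log2 difference of 1.25 that missed the threshold (edgeR adjusted p = 0.0700). Rplp0, which anchors the stalk, had 548 and 632 CPM against 831, 1059 and 1359 CPM, a log2 difference of 0.91 (SE 0.22, edgeR adjusted p = 0.0873). In all 3 genes the groups did not overlap and replicate 1 was the lowest of the deletion libraries. With Rpl12 of the stalk base, 1 of 4 stalk genes was called, and their median log2 fold change was 1.29.

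Proteins that line the exit tunnel or surround its mouth guide the new peptide out of the ribosome. Among these, Rpl19 had 10.2 and 8.97 CPM in the controls and 19.2, 24.7 and 31.9 CPM in the deletion libraries, and it rose by 1.43 (log2, SE 0.26, edgeR adjusted p = 0.0394). Rpl35, a docking site at the tunnel mouth, had 33.8 and 37.8 CPM against 65.5, 92.5 and 131 CPM. Its log2 difference of 1.46 was among the largest in the family and just missed the threshold (edgeR adjusted p = 0.0520). Rpl4, which reaches into the tunnel, was 1 of the 5 members with the most counts, with 696 and 661 CPM in controls and 1013, 1256 and 1444 CPM in deletion libraries (log2 difference 0.90, SE 0.18, edgeR adjusted p = 0.0541). In each of these genes the groups did not overlap. Over the list of tunnel and exit proteins, 1 of 8 tested genes was called and the median was 1.18.

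Rpl31, also at the tunnel exit, had a smaller difference, with 2.22 and 2.55 CPM in controls and 2.86, 2.95 and 3.50 CPM in deletion libraries (log2 difference 0.41, SE 0.41). Rpl3, Rpl8 and Rpl10 lie near the peptidyl transferase centre, where peptide bonds form, and 0 of the 3 were called. Rpl8 had 597 and 602 CPM in the controls and 806, 1082 and 1258 CPM in the deletion libraries. Rpl3 had 49.1 and 26.0 CPM against 65.1, 48.4 and 57.4 CPM. In Rpl3 the groups overlapped, and the controls differed 1.89-fold from each other.

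Rpl5 and Rpl11 assemble with the smallest RNA of the large subunit and, when unassembled, bind Mdm2 and stabilise p53. Rpl5 shared the highest fitted log2 fold change in the family, 1.69, on very few reads: 0.502 and 0.393 CPM in the controls and 0.756, 1.79 and 1.75 CPM in the deletion libraries (SE 0.73, edgeR adjusted p = 0.244). Rpl11 had 1.65 and 2.88 CPM in controls and 2.35, 4.42 and 4.63 CPM in deletion libraries, and its groups overlapped. Neither was called.

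Rpl32, a large subunit protein, had 232 and 250 CPM in the controls and 444, 660 and 813 CPM in the deletion libraries. It rose by 1.44 (log2, SE 0.25, edgeR adjusted p = 0.0376), 2.71-fold, with no overlap. Rpl13a, which in macrophages can leave the ribosome to repress inflammatory mRNAs after interferon-gamma, took more counts than any other member (a mean of 1255 CPM, not scaled for length). It had 697 and 757 CPM in controls and 1050, 1755 and 2016 CPM in deletion libraries (log2 difference 1.18, SE 0.27, edgeR adjusted p = 0.0773). The deletion replicates of Rpl13a were widely spread, but none fell within the control range. Rpl38, which affects translation of selected mRNAs, had 14.6 and 18.5 CPM against 28.1, 50.1 and 55.4 CPM (log2 difference 1.46, SE 0.31, edgeR adjusted p = 0.0629).

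On the small subunit, proteins at the mRNA exit contact the message before the start codon. Rps26 had 95.5 and 101 CPM in the controls and 171, 258 and 287 CPM in the deletion libraries, and it rose by 1.31 (log2, SE 0.23, edgeR adjusted p = 0.0388). Of the 4 exit genes 2 were called, the median of the 4 was 1.29, and no deletion library fell within the control range in any of them.

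At the mRNA entry and decoding site, 1 of 5 genes was called. Rps9 had 638 and 722 CPM in the controls and 1072, 1508 and 1715 CPM in the deletion libraries, and it rose by 1.11 (log2, SE 0.21, edgeR adjusted p = 0.0490). Rps3, an entry protein that also binds the p65 subunit of NF-kB, had 836 and 854 CPM in controls and 1203, 1567 and 1705 CPM in deletion libraries. Its log2 difference of 0.85 had an SE of 0.18 and missed the threshold (edgeR adjusted p = 0.0622), although every deletion library lay above both controls. The list of proteins with such second roles in immune signalling (Rps3, Rpl13a, Rps19 and Rpl22) had 1 called member of 4, Rps19, and a median of 1.13.

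Rps19 is the gene most often mutated in Diamond-Blackfan anaemia, an inherited failure of red cell production. It had 79.9 and 88.0 CPM in the controls and 144, 196 and 253 CPM in the deletion libraries, and it rose by 1.27 (log2, SE 0.24, edgeR adjusted p = 0.0483). Rps24, another gene of that disease, had 115 and 131 CPM against 216, 369 and 388 CPM, and it rose by 1.43 (log2, SE 0.27, edgeR adjusted p = 0.0450). Rps7, also on that list, had 71.0 and 76.5 CPM against 126, 155 and 193 CPM, and it rose by 1.13 (log2, SE 0.21, edgeR adjusted p = 0.0406). With Rps26, 4 of the 8 tested genes of that list were called, and the median was 1.21.

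Rps25, which some viral RNAs need to recruit the ribosome, had the smallest adjusted p of any core member. Its controls were almost equal at 96.7 and 97.3 CPM, and its deletion libraries had 171, 227 and 267 CPM (log2 fold change 1.23, SE 0.21, edgeR adjusted p = 0.0335). Rps20, of the head of the small subunit, rose by 1.47 (log2, SE 0.28, edgeR adjusted p = 0.0475), from 105 and 118 CPM to 199.5, 313 and 394 CPM. Rps15a rose by 1.26 (log2, SE 0.23, edgeR adjusted p = 0.0446), from 101 and 119 CPM to 186, 284 and 300.2 CPM. In all 3 the groups did not overlap, and replicate 1 lay between the controls and the other deletion libraries.

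Most members had that order of libraries. Among the 61 members with a mean of at least 10 CPM, replicate 1 exceeded both controls in 59 and lay between the controls and both other deletion libraries in 56, and replicate 3 was the highest library in 52. Over all 8037 tested genes at that level the shares were 28.1%, 10.1% and 20.7%, and over the 369 other coding genes with an mRNA under 1000 bases they were 49.9%, 42.0% and 54.5%. The 2 controls agreed within 1.5-fold in 56 of the 61. They differed by more in Rpl9 (1.57), Rps27l (1.59), Rps2 (1.63), Rps3a1 (1.86) and Rpl3 (1.89).

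Message length moved with the same libraries. In replicates 2 and 3 the other coding genes with an mRNA under 1000 bases had median log2 ratios to the controls of 0.65 and 0.67, and those of 4000 bases or more had -0.38 and -0.37. In replicate 1 the same medians were 0.16 and -0.041. The members are short, with a median mRNA of 780 bases against 2856 for tested genes, and 59 of the 85 are under 1000 bases. Among the 630 other coding genes under 1000 bases, 30 were called (4.76%), each of them higher, with a median log2 fold change of 0.56, while 10 of the 54 tested members under 1000 bases were called, with a median of 1.18. The 24 tested members of 1000 bases or more had 4 calls (Rps15a, Rps20, Rps24 and Rps25) and a median of 1.01. Rps3 and Rpl4 are also in this group and were not called. Length here is that of 1 annotated principal transcript per gene, 5179 bases for Rps15a and 3706 for Rps20. Which transcript the cells use was not measured, so the place of such genes in this group is uncertain.

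The count of calls in the family depended on how length was treated. With each library's trend on exonic length removed, 1 member was called (Rps25, beside 1.33% of all genes called higher) and the member median was 0.67, beside a median of -0.12 over all genes. With the trend on mRNA length removed, a setting chosen after seeing the data, 2 members were called (Rps20 and Rps24, beside 1.5% of all genes), both with principal mRNAs that are long for the family (3706 and 1613 bases), and the median was 0.40, beside -0.13 over all genes. With replicates 2 and 3 left out, 7 members were called (2.64% of all genes) and the member median was 0.70. In that fit 1 deletion library stands against 2 controls, so the spread comes from the controls alone and the calls are no check between deletion libraries. With the mRNA length trend also removed 0 were called by edgeR (2.12% of all genes), 31 had an unadjusted p under 0.05, and the median was 0.41. The part of length, of mitochondrial share and of other cells in the family's difference was not tested.

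Paralogs outside the core set did not all follow the core proteins. Rpl22l1, the paralog of the RNA-binding protein Rpl22, had the smallest adjusted p of any member. It had 10.7 and 9.23 CPM in the controls and 21.1, 27.4 and 29.7 CPM in the deletion libraries, and it rose by 1.42 (log2, SE 0.22, edgeR adjusted p = 0.0261). The ratio of Rpl22l1 to Rpl22 counts was 0.0604 and 0.0510 in controls and 0.0807, 0.0673 and 0.0658 in deletion libraries, so replicate 1 had the highest ratio here. Rpl36al, a paralog of Rpl36a, had 31.1 and 31.7 CPM against 53.4, 60.2 and 71.7 CPM, and it rose by 1.01 (log2, SE 0.18, edgeR adjusted p = 0.0381).

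Rpl7l1, a paralog of Rpl7 known from ribosome assembly in the nucleolus, was the 1 tested member with a fold change below 0. It had 99.2 and 106 CPM in the controls and 89.1, 97.4 and 95.8 CPM in the deletion libraries (log2 fold change -0.085, SE 0.15, edgeR adjusted p = 0.750). Its principal mRNA, of 2606 bases, is long for the family. Other coding genes of 2000 to 4000 bases had a median log2 fold change of -0.0071, and the part of length in the Rpl7l1 value was not tested. In CPM by library total all 3 deletion libraries of Rpl7l1 were under both controls, the nearest at 97.4 against 99.2 CPM. After TMM scaling the groups overlapped. The log2 ratios to the mean of the controls were -0.034 in A20 deletion replicate 2 and -0.036 in control replicate 1. Among the members this order in CPM held only for Rpl7l1 and for Rpl39l, which had at most 11 counts in any library. Its share over all genes is not reported here. In other lists it was found in 3 of 75 mitochondrial ribosomal protein genes and 5 of 40 initiation factors. It was also found in 7 of 67 ribosome biogenesis genes and 7 of 28 mTORC1 and Larp1 genes. The count ratio of Rpl7l1 to Rpl7 was 0.542 and 0.575 in the controls and 0.348, 0.310 and 0.267 in the deletion libraries. Rps19bp1, which encodes a nucleolar protein that binds Rps19 and not a ribosomal protein, had 9.90 and 13.4 CPM against 11.4, 16.1 and 14.9 CPM, with overlap (log2 difference 0.32, SE 0.24, edgeR adjusted p = 0.461). Its mRNA has 838 bases, beside a family median of 780, and the part of length in its value was not tested. Rps27l, a p53-responsive paralog of Rps27, had 12.4 and 19.7 CPM against 24.7, 25.6 and 27.9 CPM (log2 difference 0.73, SE 0.24, edgeR adjusted p = 0.162).

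Members with low counts carried little information. The 17 tested members with a mean under 10 CPM had 0 calls with edgeR, 6 with an unadjusted p under 0.05, and a median of 0.97. Rps27 had 0.359 and 0.458 CPM in controls and 0.504, 1.79 and 1.65 CPM in deletion libraries (log2 difference 1.69, SE 0.82, edgeR adjusted p = 0.282). Rps29 had 0.860 and 0.262 CPM against 0.336, 1.09 and 1.03 CPM (log2 difference 0.57, SE 0.89). Rpl27 had 3.44 and 3.67 CPM against 3.78, 4.89 and 5.55 CPM (log2 difference 0.45, SE 0.35). Rpl28, whose start window carries an 8-base pyrimidine run, had 3.44 and 4.65 CPM against 4.37, 4.74 and 5.66 CPM, with overlap (log2 difference 0.32, SE 0.33).

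The 7 members that were not tested were near or at the limit of detection, where 3 counts correspond to 0.196 to 0.308 CPM. Rpl24 had 2 and 4 counts in the controls and 0, 4 and 5 in the deletion libraries, and Rpl23a had 8 and 8 against 7, 9 and 4 counts. Both encode core proteins that every ribosome contains, so these rows do not give the level of the message. Rps27rt had 8 and 9 against 7, 9 and 18 counts. Rpl39l, known from testis, had 11 and 9 counts in the controls and 7, 4 and 2 in the deletion libraries. Rpl10l and Rpl3l, known from testis and from muscle, had 0 counts in every library.

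Near-identical copies exist for many members, and their part in these levels was not tested. Mouse ribosomal protein genes have many processed pseudogenes, and how the authors counted reads that map to several places is not given in the sources used here. In 75 of the 76 core members at least 1 stretch of 50 bases of the principal mRNA also occurs in a transcript of another annotated gene, and the median share of such stretches found in no other gene was 44.3%. Rps27 had 1.35%, Rpl35 4.91% and Rpl5 6.16%. The 247 pseudogene rows of the table held 0.558% to 1.20% as many counts as the members, so few counts stood on pseudogene rows.

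Length-scaled levels of core members ran from 0.363 CPM per kilobase for Rpl24 to 1813 for Rplp1. The 21 core members with under 25% unique stretches had a median of 19.6 CPM per kilobase, and the 26 with at least 60% had 249.7. Over the 76 core members the Spearman correlation of level with unique share was 0.53, given as a description, since genes of a family are not independent and share the 5 libraries. The fold change followed the unique share much less: the correlation was 0.13 over 73 tested core members, and median log2 fold changes were 1.11 in the 18 tested members under 25% and 1.24 in the 26 of at least 60%. How reads that map to several places were counted is not given. The levels of members such as Rpl24, Rpl23a, Rps27 and Rpl5, and their place in this order, are thus uncertain.

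**Figure D4:**
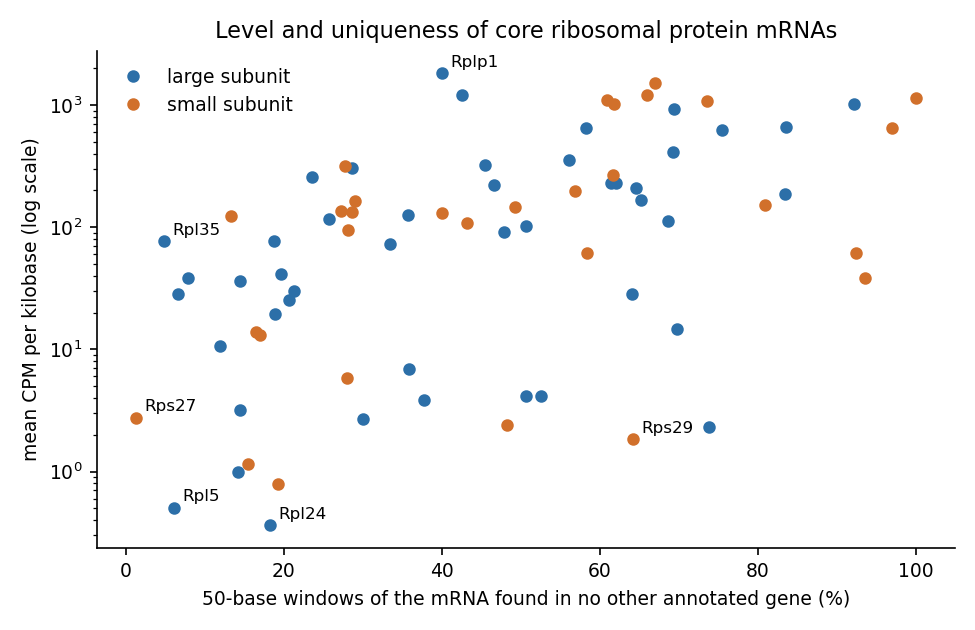
Mean level over the 5 libraries in CPM per kilobase of mRNA (log axis) against the percent of 50-base stretches of the mRNA that occur in no other annotated gene, for the 76 core members. Members with few unique stretches, such as Rpl5 and Rps27, tend to lie low, with exceptions both ways. Rpl35 has 4.91% unique stretches and 76.3 CPM per kilobase, and Rps29 has 64.2% and 1.83.

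Standard proteins with other symbols had differences of the family's size. Rack1, the signalling scaffold on the small subunit, had 669.6 and 704 CPM in the controls and 1056, 1373 and 1647 CPM in the deletion libraries (log2 difference 1.02, SE 0.20, edgeR adjusted p = 0.0527). Rpsa and Fau had log2 differences of 1.15 and 1.16, and neither was called.

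Other mRNAs known to carry a TOP tract had a smaller median difference, also above 0. Of 20 such genes, these included, 3 were called higher and 0 lower, all 20 had a log2 fold change above 0, and the median was 0.83. Their median mRNA was 1714 bases, against 780 for the members, and the part of length was not tested. Eef1a1, the factor that brings aminoacyl-tRNA to the ribosome, had 2043 and 2038 CPM in the controls and 3346, 3295 and 3887 CPM in the deletion libraries. It rose by 0.82 (log2, SE 0.14, edgeR adjusted p = 0.0314). Replicate 1 was no lower than replicate 2 in this gene, unlike in most ribosomal protein genes. Naca, a chaperone of new peptides, rose by 1.08 (log2, edgeR adjusted p = 0.0321), from 37.3 and 35.7 CPM to 63.4, 77.1 and 86.3 CPM. Npm1, a nucleolar chaperone, rose by 0.97 (log2, edgeR adjusted p = 0.0374), from 87.2 and 88.8 CPM to 144, 171 and 189 CPM.

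The rest of the translation machinery had smaller medians. Of 40 initiation factors 0 were called, 29 had a log2 fold change above 0, and the median was 0.23. The factors with the smallest p were Eif3e, Eif3f and Eif3m, subunits of the scaffold eIF3, and Eif3f had 186 and 205 CPM in controls and 299, 398 and 502 CPM in deletion libraries. Of 12 elongation and termination factors, Eef1a1 alone was called and the median was 0.33. Of 67 ribosome biogenesis and RNA polymerase I genes 0 were called and the median was 0.17. The median mRNA was 2116 bases in the initiation list, 2402 in the elongation and termination list and 2738 in the biogenesis list. Mitochondrial ribosomal proteins serve a separate ribosome. Of 75 tested, 0 were called, 65 had a log2 fold change above 0, and the median was 0.29. Their median mRNA was 1288 bases, against 780 for the members. Coding genes outside the family with mRNAs of 1000 to 2000 bases had a median of 0.23, and those of 2000 to 4000 bases had -0.0071. The part of length in the differences between these lists and the members was not tested.

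Genes that act on TOP mRNAs, on transcription of the family or on initiation under stress had medians from -0.22 to 0.10. These lists have long mRNAs, with medians from 3343 to 3686 bases. Other coding genes of 2000 to 4000 bases had a median log2 fold change of -0.0071, and those of 4000 bases or more had -0.24. Of 28 mTORC1 and Larp1 genes 0 were called, and the median was 0.10. Larp1 itself had 129.6 and 108 CPM in controls and 153, 221 and 196 CPM in deletion libraries. In the Myc network, whose members activate or oppose transcription of ribosomal protein genes, 0 of 10 were called higher and 1 lower, with a median of -0.22. The gene called was Mycl, a Myc relative, which fell by 1.03 on the log2 scale (SE 0.17, edgeR adjusted p = 0.0277), from 49.6 and 54.7 CPM to 24.5, 27.1 and 22.8 CPM. Of 14 genes of the integrated stress response, which limits initiation, 1 was called. This was Eif2ak2, which encodes the interferon-induced kinase PKR, and it rose by 1.61 (log2, SE 0.20, edgeR adjusted p = 0.0134), from 30.3 and 22.9 CPM to 75.5, 73.7 and 89.5 CPM.

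**Figure D5:**
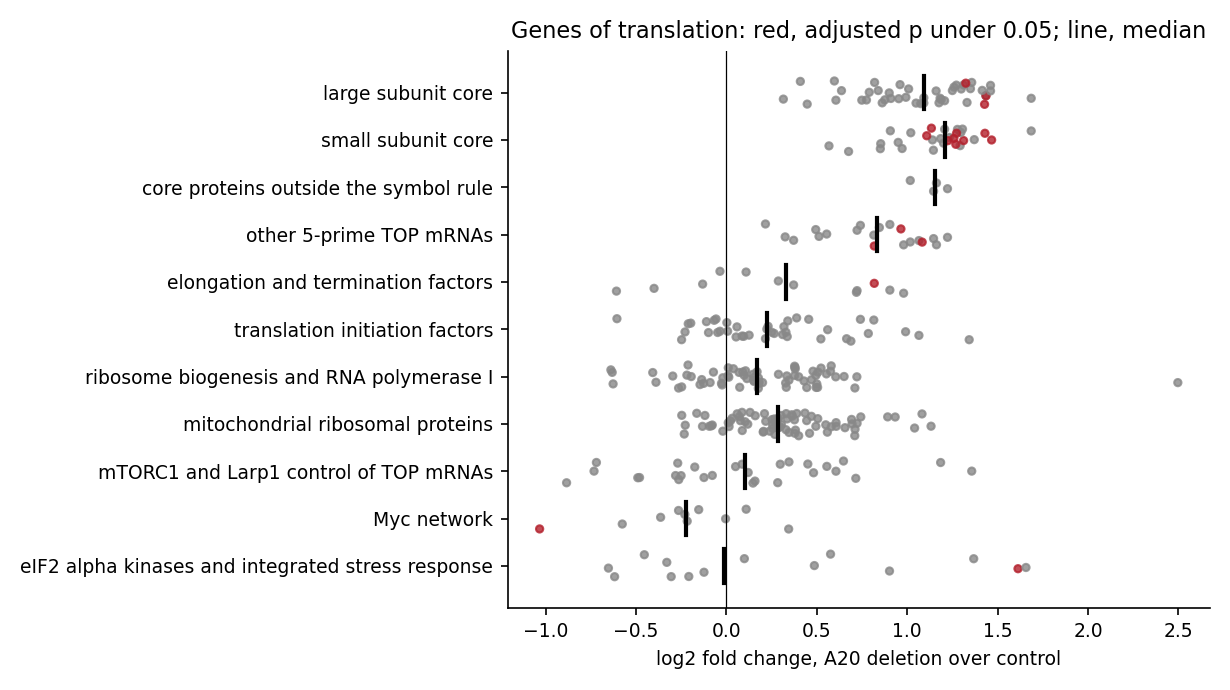
Log2 fold changes (A20 deletion over control) of every tested gene in 11 lists of the translation machinery and its control, 1 point per gene, red where the adjusted p is under 0.05, with the median as a vertical bar. The 2 core subunit lists have medians of 1.09 and 1.21, the other TOP mRNAs 0.83, and the lists from initiation factors to the stress response lie between -0.22 and 0.29, with elongation and termination factors at 0.33. The lists also differ in mRNA length.

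Within the family, median fold changes were compared by sequence features of the annotated start. The 13 tested members with a TOP tract exactly at the RefSeq start had a median log2 fold change of 1.25, and the 47 without had 1.09. Some of those 47 have such a run within 10 bases of the start, so this split does not separate members by TOP status. The 24 with CCGGAAG had a median of 1.24 and the 36 without 1.08. The 7 with the interferon response element had a median of 1.13 and the 53 without 1.14. Called members stood on both sides: Rps15a has a TOP tract at the RefSeq start and Rps25 does not, while Rpl28 has one and was not called. None of these differences within the family was tested.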

How the data were processed

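RNA of 5 libraries of eYFP-sorted microglia was sequenced. The deposited values are read counts per Ensembl gene, not normalized, in 1 table of 41388 genes. Per the submitters' processing notes the tools were STAR 2.4.0j, featureCounts and DESeq2 1.22.1, and the build was GRCm38. Not given in the sources used here are the annotation release, the strand setting and how multi-mapping reads were counted. Symbols, biotypes, coordinates and transcripts were taken from GENCODE M21, which matched 40340 of the gene identifiers. The members, gene lists and tests were chosen with earlier results of these data known.

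CPM were computed from the counts and the library totals. Genes with at least 10 counts per median library (0.777 CPM) in 2 or more libraries and 15 in all were kept, which left 12240. They were tested with edgeR 4.0.16 (R 4.3.3), with TMM scaling, a quasi-likelihood fit over the 2 groups and Benjamini-Hochberg adjustment at 0.05. The script was tested on simulated data. Alternatives used DESeq2 1.42.0, limma 3.58.1, other scalings and filters, a replicate block, length trends per library (loess span 0.3), the mitochondrial share as a covariate, and left-out libraries. Library totals from 9726334 to 15275199 counts set the precision of counting. The floors in CPM cover counting error only, while the SE of a fold change also includes the spread between libraries.

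Uniqueness was the share of 50-base stretches of the principal GENCODE mRNA found, on either strand, in no transcript of another gene. Members named in full were those called, the 6 with the highest and the 6 with the lowest fold change, the 5 with the most CPM, 6 chosen for their roles, those outside the core and those not tested; from other lists up to 3 with the smallest p. A few further members were named after their values were seen (Rpl8, Rpl3, Rpl11, Rpl12, Larp1 and the genes whose controls differed). Values of some members are not reported here.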

Additional observations from a re-analysis of the deposited data

How the results depend on the processing

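The direction of the family was kept under each alternative run for it, while the number of called members was not. The median log2 fold change of the members was 1.12 with DESeq2 size factors, 1.23 with upper quartile scaling, 1.12 with library size alone and 1.24 with a filter of 5 CPM, against 1.15 in the analysis reported. It was 0.67 with the trend on exonic length removed, 0.40 with the trend on mRNA length, 0.41 with that trend fitted without ribosomal protein genes, 0.78 with the mitochondrial share as a covariate, 0.70 without A20 deletion replicates 2 and 3, and 0.41 with the mRNA length trend removed as well. Upper quartile scaling and no filter moved the median of all genes to 0.11 and 0.17. Against 14 called members, library size alone gave 9 (1.94% of all genes called higher), limma-voom 8 (1.36%), no filter 59 (5.06%), 5 CPM 23 (3.08%) and DESeq2 57 (6.08%). Exonic length gave 1 (1.33%), mRNA length 2 (1.5%), mRNA length fitted without ribosomal protein genes 2 (1.5%), leaving out replicates 2 and 3 gave 7 (2.64%, 6 of them among the 14), and that with mRNA length 0 (2.12%, 31 at an unadjusted p under 0.05). At an adjusted p under 0.01, 0 were called (0.458%). Leaving out 1 library in turn gave 0 to 66 called members and medians from 0.99 to 1.33: 66 without A20 deletion replicate 1 (15.7% of all genes), and 0 without control replicate 1, control replicate 2, A20 deletion replicate 2 or A20 deletion replicate 3, where 57, 59, 63 and 61 members had an unadjusted p under 0.05. Where 1 control was left, it is assumed to vary like the deletion libraries, and where 1 deletion library was left, like the controls, whose spread alone gives those p-values. The difference in the members' share of counts was 1.13 percentage points, 1.93 per exonic length, 0.542 without replicates 2 and 3, and 0.902 to 1.42 without 1 library in turn. The difference in the large to small ratio was -0.051, -0.027 per exonic length, and -0.067 to -0.035 without 1 library in turn.

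Of 619 values of single named genes under alternatives, 408 kept direction and side of the threshold, 157 were no longer called, 29 became called and 25 reversed. With exonic length the log2 fold changes reversed to -0.13 for Rpl28, -0.45 for Rps29, -0.026 for Rps27l, -0.37 for Rps19bp1, -0.10 for Rpl27 and -0.083 for Rpl31. With mRNA length they were -0.20, -0.56, -0.088, -0.34, -0.36 and -0.13 in the same order, and with that trend fitted without ribosomal protein genes -0.19, -0.54, -0.062, -0.32, -0.34 and -0.12. Rps29 was also -0.54 with the mitochondrial share, -0.11 to 1.60 without 1 library in turn (the lowest without control replicate 2) and -0.65 without A20 deletion replicates 2 and 3. With mRNA length and those replicates left out, Rpl28 was -0.032, Rps29 -1.02, Rps19bp1 -0.21 and Rpl27 -0.16. The cause was not tested. The settings on mRNA length, and the share and ratio without replicates 2 and 3, were chosen after seeing the data.

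With the replicate number as a block, 7 members were called (1.86% of all genes called higher), 5 of them among the 14, and the median was 0.96. Deviations of same-numbered libraries correlated at 0.26 for replicate 1 and 0.17 for replicate 2; the labels name no pairing, and 2 pairs are too few to show one. Members under 10 CPM rest on few reads and have wide errors (SE 0.89 for Rps29), and for members with few unique stretches the level is uncertain.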
